A study of Mus musculus with 8 samples.

Results

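The mitochondrial ribosomal proteins were examined in S0 cells of WT and DKO mouse fetal livers. Their genes were taken as every protein-coding gene whose symbol starts with Mrpl or Mrps followed by a digit, after the gene identifiers of the count table had been matched to mouse symbols with the version dropped. This gave 78 of the 52636 genes in the table, 49 Mrpl genes named for the large subunit and 29 Mrps genes named for the small subunit, spread over 17 chromosomes. All 78 passed the filter on low counts, and the lowest count of any of them in any library was 1205. In DKO cells 15 of the 78 genes were higher and 4 were lower (19.2% and 5.13%), all by less than 2-fold. Of all genes tested, 10.7% were higher and 10.8% lower. The median gene stood at 1.12 times its WT level in either subunit, and at 1.02 times over all genes tested. Mrpl52, Mrpl30, Mrpl53 and Mrpl54 rose most, by 1.39 to 1.55 times, and Mrpl44, Mrpl50, Mrps2 and Mrps27 fell to between 0.760 and 0.790 of their WT levels. When each library was corrected for GC content and length, 8 of the 15 higher genes kept their calls. The median log2 fold change of the 78 genes went from 0.17 to 0.069. The calls of Mrpl53 and Mrpl54 were among those that ended, and the log2 fold change of Mrpl54 was then -0.065.

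The mitochondrial ribosome sits in the matrix and translates the few mRNAs of the mitochondrial genome, which encode core subunits of the respiratory chain and of the ATP synthase. Its large subunit joins amino acids and releases the growing chain toward the inner membrane, and its small subunit holds the mRNA and reads its codons. The rRNAs come from the mitochondrial genome, while every protein of both subunits is encoded in the nucleus, made in the cytosol and imported, so that a mitochondrial ribosome needs matched supply from both genomes. Erythroid precursors depend on mitochondria for heme synthesis before they lose them as red cells mature.

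The study asked what the joint loss of VPS13A and VPS13C, which carry lipids between membranes, does to blood formation in the mouse embryo, and it profiled S0 cells at E12.5 by RNAseq (4 WT and 4 DKO libraries). S0 cells are the fraction of the fetal liver that carries neither CD71 nor Ter119 and that a cocktail of antibodies to lymphoid and myeloid surface proteins leaves unlabelled. The mice were kept on a C57BL/6J background. DKO embryos carried the Vps13a tm1d allele, derived from tm1a with FLP and β-actin-Cre and so deleted in every cell, together with the Vps13c-/- allele. They came from crosses of Vps13a+/-/Vps13c-/- mice, in which every littermate lacks Vps13c, so WT embryos came from other litters and litter and genotype cannot be told apart. Neither the labels nor the methods say whether a library is 1 embryo, and the p-values measure the spread between these libraries.

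The WT libraries held 42114489 to 50886469 counts and the DKO libraries 36981439 to 42587815. Levels are given here as normalized counts, that is, each count over its library's TMM-scaled size, times the mean of those sizes. The targeted gene Vps13a averaged 1943 ± 129.5 normalized counts over the WT libraries and 794 ± 194 over the DKO libraries (SD, n = 4), with no overlap between the groups. Vps13c transcripts were at 583 ± 74.9 in WT and 816 ± 279 in DKO, a difference that did not pass the test (edgeR adjusted p = 0.182), so that of the targeted genes only Vps13a checked the labels. Xist, which is transcribed in females, was at 18029 to 27043 normalized counts in DKO replicates 1, 2 and 4, at 62.3 in DKO replicate 3 and at no more than 30.1 in the WT libraries. The Y-linked Ddx3y had the reverse pattern, so DKO replicate 3 was the only DKO library to match the 4 WT libraries in these genes. All 8 erythroid markers examined were detected in every library. The 7 hepatoblast markers, led by Afp, were also detected in every library, with summed levels of 442785 to 616752 normalized counts in WT and 146925 to 534071 in DKO.

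The main comparison asked how the mitochondrial ribosomal protein genes of DKO cells differed from those of WT cells. The members made up 0.926 to 1.04% of all counts in the WT libraries (median 0.975%) and 0.989 to 1.21% in the DKO libraries (median 1.10%). Each gene was tested with edgeR's quasi-likelihood test and was called at a Benjamini-Hochberg adjusted p under 0.05 over the 17378 genes tested. By this rule 15 of the 78 genes were higher in DKO (19.2%), where 10.7% of all genes tested were, and 4 were lower (5.13%), where 10.8% were. With upper-quartile scaling these counts were 29 and 1, where 14.3% of all genes were higher and 7.15% lower. No member passed the threshold of a log2 fold change beyond 1 that the study used, which 6.19% of all genes passed upward and 2.43% downward. The log2 fold change was positive in 60 members and negative in 18, with a median of 0.17 and a range of -0.40 to 0.63. It lay between -0.5 and 0.5 in 76 members (97.4%), compared with 60.8% of all genes and 63.8% of protein-coding genes, and the median of all genes was 0.032. Related sets were narrow too. The share was 96.3% of the factors that assemble the mitochondrial ribosome and 93.8% of mitochondrial translation factors. It was 87.8% of nuclear respiratory chain genes and 76.1% of cytosolic ribosomal protein genes. The members and the larger sets were not matched in level. The median SD over the WT libraries was 0.089 for the members and 0.21 for all genes tested, on the log2 scale. All 4 DKO libraries lay above all 4 WT libraries in 14 members, where 13.5% of all genes showed this, and below them in 3, where 14.6% did. These shares are descriptions and carry no test, because the members were chosen with results of these data known. In bulk RNA, fewer cells of a type and less RNA per cell cannot be told apart.

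**Figure D1:**
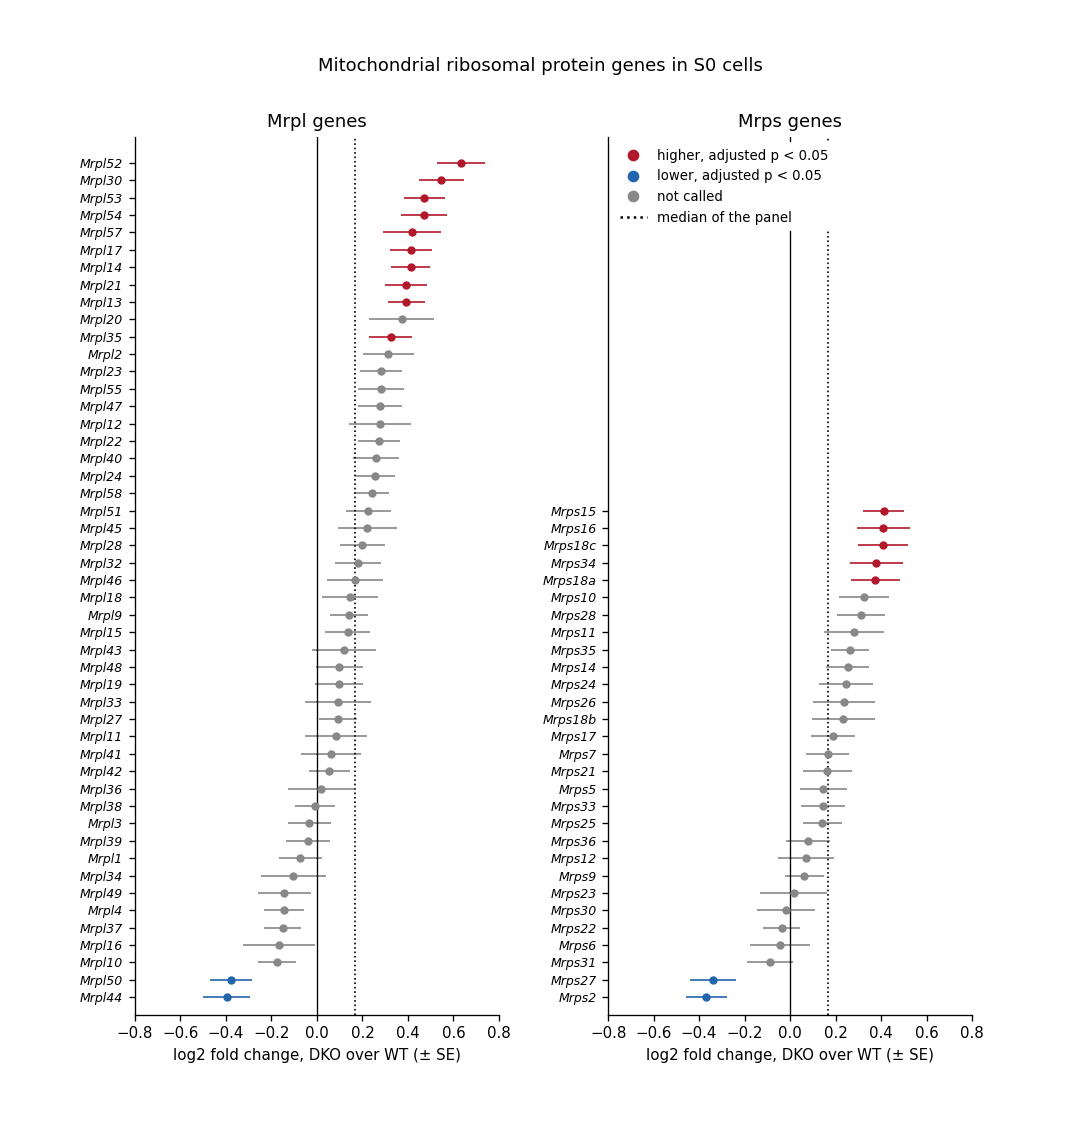
Log2 fold change of DKO over WT for each of the 49 Mrpl genes (left) and 29 Mrps genes (right), with bars for the standard error of the edgeR fit, red for genes called higher, blue for genes called lower and grey for the rest. Both panels have the same median of 0.17 (dotted line), 37 of 49 Mrpl and 23 of 29 Mrps genes lie right of 0, and the 4 genes called lower stand apart on the left.

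The count of calls depended on single libraries. It was 35 higher and 3 lower without DKO replicate 1, where 10.8% of all genes were higher and 11.3% lower, and 9 higher and 3 lower without DKO replicate 4, where the shares of all genes were 8.25 and 8.48%. Leaving out WT replicates 1, 2 or 4 lowered it, and the calls over all genes fell as well. It was 7 higher and 0 lower without WT replicate 1 (4.74 and 4.96% of all genes), 9 higher and 1 lower without WT replicate 2 (5.63 and 5.85%) and 7 higher and 0 lower without WT replicate 4 (5.26 and 5.31%). The median over the members stayed above 0 in each of these fits, between 0.12 without DKO replicate 3 and 0.25 without DKO replicate 1. DESeq2 called 20 members higher and 4 lower, where it called 13.1% of all genes higher and 12.6% lower, and these included all 19 members called by edgeR.

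Promoter sequences of 6 called members, the 3 of smallest p in each direction, are shown because their genes moved apart although they encode parts of 1 complex. Each window runs from 120 bases before to 30 after the RefSeq start site (GRCm38.p6), 5′ to 3′ on the strand of the gene, and capitals mark matches to the ETS letters CCGGAAG, the NRF1 letters (GCGCA, any base, then GCGC) or the YY1 letters AAGATGGCG on either strand.
Mrpl52, higher, plus strand, chr14:54426789-54426938: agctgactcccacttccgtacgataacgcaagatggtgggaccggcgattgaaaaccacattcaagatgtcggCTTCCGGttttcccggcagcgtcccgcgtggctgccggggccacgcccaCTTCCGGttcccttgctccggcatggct
Mrpl30, higher, plus strand, chr1:37890357-37890506: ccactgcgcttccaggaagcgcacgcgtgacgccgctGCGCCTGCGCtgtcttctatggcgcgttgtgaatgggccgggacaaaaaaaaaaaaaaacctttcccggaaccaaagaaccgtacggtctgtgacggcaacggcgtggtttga
Mrpl53, higher, plus strand, chr6:83108988-83109137: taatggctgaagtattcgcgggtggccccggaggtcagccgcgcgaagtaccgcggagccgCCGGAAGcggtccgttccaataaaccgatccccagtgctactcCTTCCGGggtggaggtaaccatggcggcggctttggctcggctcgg
Mrpl50, lower, minus strand, chr4:49521054-49521203: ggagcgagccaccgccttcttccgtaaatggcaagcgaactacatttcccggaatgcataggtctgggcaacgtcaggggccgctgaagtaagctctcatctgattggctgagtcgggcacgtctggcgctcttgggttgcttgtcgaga
Mrps2, lower, plus strand, chr2:28467946-28468095: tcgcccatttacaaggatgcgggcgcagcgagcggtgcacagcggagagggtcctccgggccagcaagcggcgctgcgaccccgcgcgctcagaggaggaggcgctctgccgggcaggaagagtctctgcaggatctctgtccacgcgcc
Mrpl44, lower, plus strand, chr1:79775898-79776047: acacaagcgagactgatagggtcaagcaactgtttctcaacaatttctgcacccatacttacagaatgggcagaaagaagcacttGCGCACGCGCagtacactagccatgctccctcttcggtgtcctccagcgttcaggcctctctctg

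Counted from the start site at 1, ETS letters began at positions -47 and 3 of Mrpl52 and at -59 and -16 of Mrpl53, and NRF1 letters at -83 of Mrpl30 and -35 of Mrpl44. The windows of Mrpl50 and Mrps2 held none of the 3 motifs. ETS factors, NRF1 and YY1 are known to act on promoters of nuclear genes for mitochondria. Over the longer RefSeq window of 250 bases before to 50 after the start site, which was given for 69 of the 78 members, ETS letters stood in 26 members (37.7%) and in 18.7% of 10963 protein-coding genes tested. NRF1 letters stood in 13 members (18.8%, against 10.7%) and YY1 letters in 8 (11.6%, against 3.3%), and at least 1 of these motifs stood in 41 members (59.4%, against 29.1%). The E-box CACGTG stood in 5 members (7.25%, against 11.3%). Both strands were searched, and overlapping matches of different motifs were each counted. The median log2 fold change was 0.20 for the members with ETS letters and 0.17 for those without, 0.22 and 0.15 for NRF1, and 0.15 and 0.17 for YY1. Genes called lower held them too, with 1 for each of these 3 motifs. A match of letters is a description and not evidence of binding.

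Among the large subunit genes that rose, Mrpl52 changed most. It encodes a protein that bacterial ribosomes lack. Mrpl52 (ENSMUSG00000010406.11; GRCm38 chromosome 14, 54426909 to 54429756, plus strand) counted 3534, 3504, 4502 and 3300.3 in WT replicates 1 to 4 and 5846, 5699, 6084 and 5407 in DKO replicates 1 to 4, in normalized counts. Every DKO library was above the highest WT library, and the log2 fold change was 0.63 ± 0.11 (SE; edgeR adjusted p = 0.00519). Mrpl30 (ENSMUSG00000026087.11; GRCm38 chromosome 1, 37890477 to 37898535, plus strand), the counterpart of bacterial L30, had 7096, 6403, 7725 and 6289 in WT and 8917, 10429, 11216 and 9646 in DKO. The groups did not overlap, DKO replicate 1 was the lowest DKO library, and the difference was 1.46-fold (edgeR adjusted p = 0.0068). Mrpl53, another protein without a bacterial counterpart, rose from 2757, 2796, 3001 and 2666 in WT to 3576, 3549.9, 4056 and 4388 in DKO. Its lowest DKO libraries were replicates 1 and 2, both above the highest WT library, and its log2 fold change was 0.47 ± 0.092 (edgeR adjusted p = 0.0087). After a correction of each library for GC content and transcript length, however, it was 0.15 and was no longer called (edgeR adjusted p = 0.249). Exons of 2 genes overlap those of Mrpl53, 1 of them on its own strand, and these counts may be shared.

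Mrpl13 and Mrpl14 encode proteins conserved from bacteria, and Mrpl14 lies on the face of the large subunit where the assembly factor MALSU1 binds. Mrpl13 had 4032, 4036, 4056 and 4182 normalized counts across the WT libraries and 4809, 5711, 5776 and 5115 across the DKO libraries. All DKO values were higher (1.31-fold, edgeR adjusted p = 0.0107), with DKO replicate 1 the nearest to WT. Mrpl14 had 4139, 3968, 4543 and 4156 in WT and 4926, 5602, 6041 and 5805 in DKO, again with no overlap (1.33-fold, edgeR adjusted p = 0.0113). Mrpl54, among the most abundant members per length, had 6953, 6972, 8050.3 and 6231 in WT and 8646, 9628, 10938 and 9879 in DKO. The DKO libraries were all above WT replicate 3, the highest of WT (1.39-fold, edgeR adjusted p = 0.0126). After the same correction, the log2 fold changes of Mrpl14 and Mrpl54 turned to -0.077 and -0.065 and were no longer called. Mrpl17, a protein at the exit of the peptide tunnel, had 8517, 7700.1, 8821 and 8129 in WT and 9467, 11749, 11978 and 10971 in DKO. The gap between the groups was narrow, since DKO replicate 1 stood just above WT replicate 3, and the difference was 1.33-fold (edgeR adjusted p = 0.0136). These 7 genes, Mrpl52, Mrpl30, Mrpl53, Mrpl13, Mrpl14, Mrpl54 and Mrpl17, kept their calls in all 8 fits that left out 1 library, and no other called member did.

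**Figure D2:**
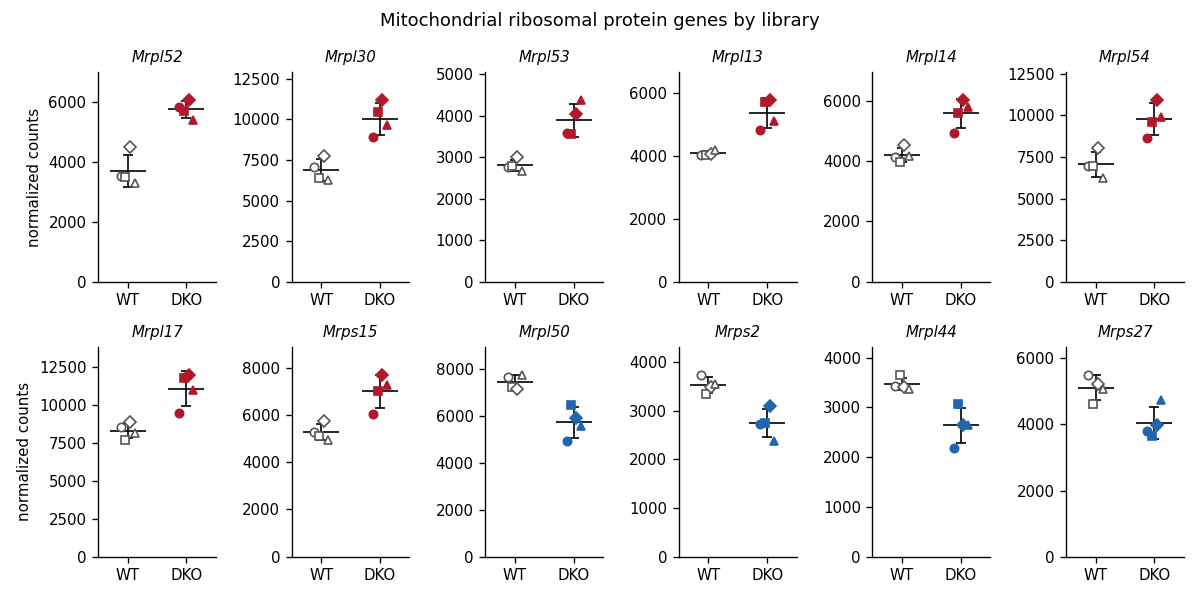
Normalized counts of the 8 members with the smallest p among those higher and the 4 called lower, in the 4 WT libraries (open symbols) and 4 DKO libraries (filled symbols), where circle, square, diamond and triangle are replicates 1 to 4 and the line and bars give the mean and SD. In the first 8 panels every DKO point lies above every WT point, as in Mrpl52 with 5407 or more in DKO and 4502 or less in WT, while Mrps27 is the only panel in which the groups overlap.

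The other 3 large subunit genes called higher each lost the call in some of the fits that left out a library. Mrpl21, a counterpart of bacterial L21, rose by 0.39 on the log2 scale and did not overlap between the groups (edgeR adjusted p = 0.0175). Mrpl35, a counterpart of bacterial L35, had 6225, 5996, 6492 and 6524 normalized counts across the WT libraries and 6570.1, 8267, 8704 and 8052 across the DKO libraries. DKO replicate 1 lay just above the WT range, and the rise was 0.32 (edgeR adjusted p = 0.0376). Mrpl57 rose by 0.42 (edgeR adjusted p = 0.0436), and its DKO replicate 1 at 5194 lay below the highest WT library at 5641. The calls of Mrpl35 and Mrpl57 were kept in only 1 and 1 of the 8 fits that left out a library, in both cases the fit without DKO replicate 1.

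In the small subunit set 5 genes rose. Mrps15, whose bacterial counterpart is among the first proteins to bind the small subunit rRNA, had 5269.5, 5111, 5764 and 4949 normalized counts across the WT libraries and 6054, 7030.1, 7715 and 7251 across the DKO libraries. The groups did not overlap (1.33-fold, edgeR adjusted p = 0.0144), and the call was kept in 6 of 8 fits that left out a library. Mrps16, in which inherited mutations impair mitochondrial translation in patients, had 5268 ± 585 in WT and 7002 ± 887 in DKO (SD, n = 4; 1.33-fold, edgeR adjusted p = 0.0324). DKO replicate 1 fell within the WT range, and the call was kept in 2 of 8 fits. Mrps34, a protein specific to mitochondrial ribosomes, had 6090.2 ± 579 in WT and 7916 ± 1119 in DKO with overlap (1.3-fold, edgeR adjusted p = 0.0454), a call kept in 1 of 8 fits.

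The remaining pair, Mrps18a and Mrps18c, belong to a family of 3 paralogs of bacterial S18, of which the Mrps18a protein resides in the large subunit and the other two in the small subunit. Mrps18c had 3646, 3973, 4234 and 3985 normalized counts across the WT libraries and 4482, 4951, 6275 and 5320.5 across the DKO libraries, without overlap (log2 fold change 0.41 ± 0.11, edgeR adjusted p = 0.0266). Mrps18a had 5388, 5131, 6123 and 5129 in WT and 5800.0, 7518, 7829.6 and 7087 in DKO, where DKO replicate 1 lay below WT replicate 3 (log2 fold change 0.38 ± 0.11, edgeR adjusted p = 0.0355). Mrps18b had 3297, 3262, 3445 and 2796 in WT and 2767, 4022, 3906 and 4357 in DKO. Its DKO replicate 1 was the lowest of all 8 libraries, and the log2 fold change of 0.23 ± 0.14 was not called (edgeR adjusted p = 0.257). Whether the paralogs differed from each other in their response was not tested.

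The members that fell were Mrpl50, Mrps2, Mrpl44 and Mrps27. Mrpl50 (ENSMUSG00000044018.3; GRCm38 chromosome 4, 49512596 to 49521093, minus strand), a large subunit protein without a bacterial counterpart whose printed promoter held none of the motifs, had 7651, 7214, 7109 and 7747 normalized counts across the WT libraries and 4909, 6458, 5905 and 5574 across the DKO libraries. Every DKO library was below the lowest WT library, and the level fell to 0.769 of WT (edgeR adjusted p = 0.0195). Mrps2 (ENSMUSG00000035772.11; GRCm38 chromosome 2, 28468066 to 28471178, plus strand), the counterpart of bacterial S2, had 3742, 3344, 3484 and 3556 in WT and 2731, 2748, 3088 and 2384 in DKO. No DKO library reached the WT range, and the log2 fold change was -0.37 ± 0.092 (edgeR adjusted p = 0.0217). Mrpl44 (ENSMUSG00000026248.9; GRCm38 chromosome 1, 79776018 to 79781445, plus strand), which has a fold like that of RNase III and lies near the tunnel exit, had 3426, 3659, 3414 and 3369 in WT and 2184, 3065, 2651 and 2635 in DKO. DKO replicate 1 was the lowest library and DKO replicate 2 the nearest to WT, again without overlap (log2 fold change -0.40 ± 0.10, edgeR adjusted p = 0.0257). Mrps27, a pentatricopeptide repeat protein of the small subunit, had 5514, 4634, 5241 and 5086 in WT and 3815, 3637, 3992 and 4737 in DKO. Here DKO replicate 4 exceeded WT replicate 2, and the log2 fold change was -0.34 ± 0.10 (edgeR adjusted p = 0.0391). None of these 4 calls held in all 8 fits that left out a library: Mrps2 kept its call in 6, Mrpl50 in 5, Mrpl44 in 4 and Mrps27 in 1. The next 4 by p with a negative difference were not called, and their log2 fold changes were -0.17 for Mrpl10, -0.15 for Mrpl37, -0.14 for Mrpl4 and -0.14 for Mrpl49.

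Exons of 33 members, 8 of the 19 called ones among them, overlap exons of another gene, mostly on the opposite strand (Mrpl13 with Mtbp, Mrpl14 with Tmem63b, Mrpl21 with Ighmbp2, Mrpl44 with Wdfy1). How strand was handled in counting is not given in the sources used here, so reads of such partners cannot be told apart. The called members Mrpl53, Mrps18c and Mrps34 each overlap 1 gene on their own strand, and their counts may be shared. Mrpl46 and Mrps11, 1 gene of each subunit, start head to head on chromosome 7 and overlap in their first exons. Mrps11 was 1.21-fold and Mrpl46 1.12-fold of WT, and neither was called.

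The levels of the members differed far more between genes than between genotypes. Per kilobase of the principal transcript, they ranged in WT from 776 normalized counts for Mrps35 to 20649 for Mrpl42, a 26.6-fold spread, with a median of 3604 in WT and 4014 in DKO. Mrpl42 led in both genotypes with 20649 in WT and 21431 in DKO, and its total of 13752 ± 829 in WT and 14273 ± 1437 in DKO (SD, n = 4) was not called (edgeR adjusted p = 0.714). Mrpl12, the large subunit counterpart of the bacterial stalk protein L7/L12, followed with 13117 per kilobase in WT and 15894 in DKO. In bacteria this protein is present in several copies on each ribosome. Mrpl54, Mrpl33 and Mrpl18 came next by the mean of both genotypes, with 11675, 12069.7 and 11726 per kilobase in WT, and of these 5 only Mrpl54 was called. Across WT libraries the values of Mrpl12, Mrpl54, Mrpl33 and Mrpl18 overlapped on this scale, and those of Mrpl42 were above them all. At the other end stood Mrps25 with 839 and 927 per kilobase in WT and DKO, Mrps35 with 776 and 933, and Mrpl1, a protein of the mobile stalk beside the exit site of tRNA, with 829 and 789. None of these 3 was called, although all DKO values of Mrps35 were above its WT values (1.2-fold, edgeR adjusted p = 0.052).

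The large and small subunits were then set side by side. Of 49 Mrpl genes 10 were higher and 2 lower (20.4% and 4.08%), and of 29 Mrps genes 5 were higher and 2 lower (17.2% and 6.9%). Of all genes tested, 10.7% were higher and 10.8% lower. The median log2 fold change was 0.17 in each set, with a middle range of 0.016 to 0.28 for Mrpl and 0.063 to 0.28 for Mrps (25th to 75th percentile). Assigning genes by their place in the mammalian ribosome, with Mrps18a and Mrps30 in the large subunit and Mrps36 left out as a protein now placed in the 2-oxoglutarate dehydrogenase complex, gave 11 higher and 2 lower of 51 (median 0.17) and 4 higher and 2 lower of 26 (median 0.18). Within each library the medians of the subunits followed each other. Relative to the WT mean of each gene, the Mrpl median in log2 units was 0.020, -0.036, 0.085 and -0.072 in WT replicates 1 to 4 and -0.061, 0.24, 0.37 and 0.11 in DKO replicates 1 to 4. The Mrps median was 0.024, -0.033, 0.11 and -0.070 in WT and -0.048, 0.22, 0.36 and 0.16 in DKO. The difference between them stayed between -0.051 and 0.022 in all 8 libraries.

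**Figure D3:**
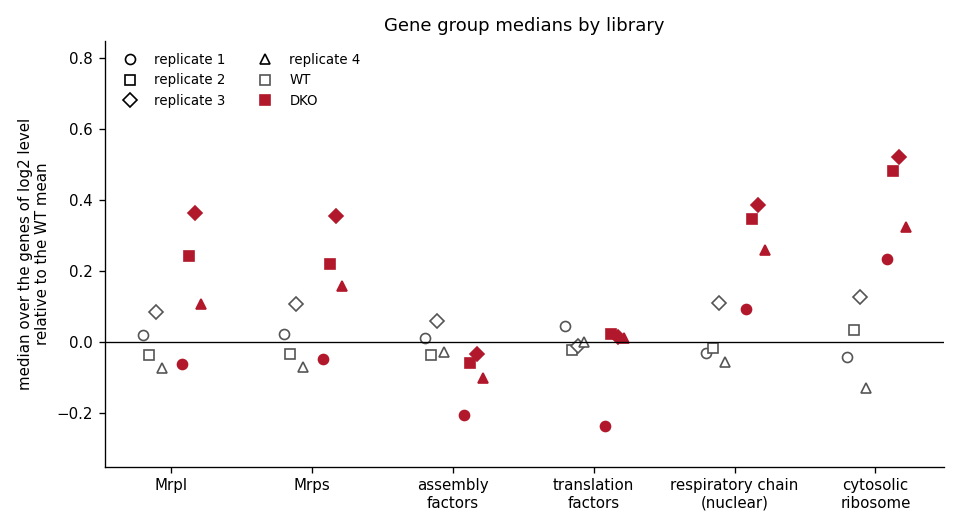
Median over the genes of each group of the log2 normalized count relative to the gene's WT mean, in each WT library (open) and each DKO library (filled), with symbols for the replicate. The Mrpl and Mrps columns show the same order of libraries, with DKO replicate 1 at -0.061 and -0.048 within the WT range and DKO replicate 3 at 0.37 and 0.36, and the medians of the cytosolic ribosomal proteins are at 0.23 or more in all 4 DKO libraries.

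These per-library values showed that the DKO libraries did not move alike. DKO replicate 1 was the lowest DKO library in 67 of 78 members and DKO replicate 3 the highest in 56. The number of members above their WT mean was 31 in DKO replicate 1, 66 in replicate 2, 69 in replicate 3 and 58 in replicate 4. The median SD over the members was 0.089 in WT and 0.18 in DKO on the log2 scale, and over all genes tested it was 0.21 and 0.35. DKO replicate 3 was also the DKO library with Xist near the WT level, and the median over the members was 0.34 when it alone was compared with WT, a fit in which the lone library is assumed to vary like the others. The 5 mesenchyme markers had summed levels of 1721 to 5244 normalized counts in WT and 11121 to 39915 in DKO, with 4 of 5 called higher. Their median was highest in DKO replicate 1 at 4.07 (log2, relative to WT) compared with 2.01 to 2.75 in the other DKO libraries. The hepatoblast median was lowest in DKO replicate 3 at -2.32, compared with -0.72 to -0.32 in the other DKO libraries, and over the 7 markers the median log2 fold change was -0.83. Of these markers 4 (Alb, Apoa1, Ttr and Serpina1a) were lower in every DKO library than in every WT library, and 0 of 7 were called in edgeR but these 4 in DESeq2. Of 5 progenitor markers 4 were lower in DKO and of 8 erythroid markers 2 were higher. The macrophage markers C1qa, C1qb and Adgre1 were at 0 in 3, 2 and 1 of the 8 libraries, and 1 of 6 macrophage, 1 of 6 endothelial and 1 of 5 megakaryocyte markers were called, all lower. The part of these cell types and of sex in the members' levels was not tested.

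The members were also set out by their roles within the ribosome, in groups of 3 to 7 genes. At this size a count of 0 called cannot be set apart from the share of all genes that were called. Of the stalk proteins Mrpl10, Mrpl11 and Mrpl12, which recruit translation factors, none was called, with log2 fold changes of -0.17, 0.084 and 0.28. Of 4 proteins around the peptidyl transferase center (Mrpl2, Mrpl3, Mrpl16 and Mrpl27) none was called, and Mrpl2 was the highest at 0.31 and Mrpl16 the lowest at -0.17. With the correction for GC content and length Mrpl2 was at -0.0032 and Mrpl27 went from 0.091 to -0.19. At the exit of the peptide tunnel 7 genes were examined, of which Mrpl17 was higher and Mrpl44 lower. Mrpl45, which anchors the ribosome at the inner membrane, had 6571, 5696, 6125 and 6252 normalized counts across the WT libraries and 5306, 7471, 7883 and 8074 across the DKO libraries. Its DKO replicate 1 was the lowest of the 8 libraries and the other 3 DKO libraries were above all WT libraries, and it was not called (1.17-fold, edgeR adjusted p = 0.248).

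In the central protuberance, the part of the large subunit that contacts the small one, none of 6 genes was called (median 0.16). Among them was Mrpl58, a peptidyl-tRNA hydrolase that rescues stalled ribosomes. Mrpl58 had 4034, 3917, 4555 and 4312 normalized counts across the WT libraries and 4654, 5035, 5202 and 4975 across the DKO libraries, with no overlap, and narrowly missed the threshold (1.18-fold, edgeR adjusted p = 0.0539). In the small subunit none of 3 genes of the decoding center and mRNA entry and none of 7 genes of the head was called, with medians of 0.15 and 0.17 and positive values in 3 of 3 and 6 of 7 genes. Mrps12, the decoding center protein, had 5490.5, 5474, 6038 and 5412 in WT and 4635, 6287, 7101 and 5516 in DKO. The groups overlapped over most of their range (log2 fold change 0.07 ± 0.12, edgeR adjusted p = 0.727). Mrps30 was at 6782 ± 248 in WT and 6705 ± 1252 in DKO (SD, n = 4) and Mrps36 at 3051 ± 195 and 3219.8 ± 346, and neither was called. Over 46 members with a counterpart in bacterial ribosomes 10 were higher and 1 lower (21.7% and 2.17%, median 0.19). Over the 32 without one 5 were higher and 3 lower (15.6% and 9.38%, median 0.13). Of all genes tested, 10.7% were higher and 10.8% lower, and the difference between these 2 sets was not tested.

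Transcript length moved with the result. The members are short, with a median principal transcript of 1302 bases, compared with 2963 for all protein-coding genes tested, while the GC content was 49.8 and 49.9%. Of the 26 shortest members, of 418 to 1018 bases, 9 were higher and 0 lower in edgeR (34.6% and 0.0%), with a median log2 fold change of 0.28. The other protein-coding genes of this class, of 204 to 1026 bases, had the same median, 0.28, and 29.8% of them were higher and 2.71% lower. In the middle class the members had 1031 to 1849 bases and the other genes 1027 to 1886. The median was 0.13 for the members and 0.079 for the other genes. Of the members 2 were higher and 2 lower (7.69% each), compared with 14.3% and 5.11% of the other genes. In the longest class the members had 1962 to 7300 bases and the other genes 1887 to 123179, so they were not matched in length there. The median was 0.17 for the members and -0.072 for the other genes. Of the members 4 were higher and 2 lower (15.4% and 7.69%), compared with 8.79% and 15.8% of the other genes. All 4 genes that fell are of the middle and longest classes, with lengths of 1424 to 2114 bases. With each library corrected for GC content and length, 13 members were higher (16.7%) and 6 lower (7.69%), where 8.77% and 9.36% of all genes were. This correction used the longest transcript of each gene and not the principal one. With it the medians were 0.075 for Mrpl and 0.061 for Mrps. The correction kept the calls of 8 of the 15 higher members, among them Mrpl52, Mrpl30, Mrpl13 and Mrpl17, and of all 4 lower members, and it ended those of Mrpl53, Mrpl14, Mrpl54, Mrpl21, Mrps15, Mrps18c and Mrps34. Members not called in the main fit gained calls, with Mrps35, Mrpl58, Mrpl23, Mrps10 and Mrpl47 higher. Mrpl34 and Mrpl38 were called lower, with log2 fold changes of -0.58 and -0.27 (edgeR adjusted p = 0.0129 and 0.0319).

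**Figure D4:**
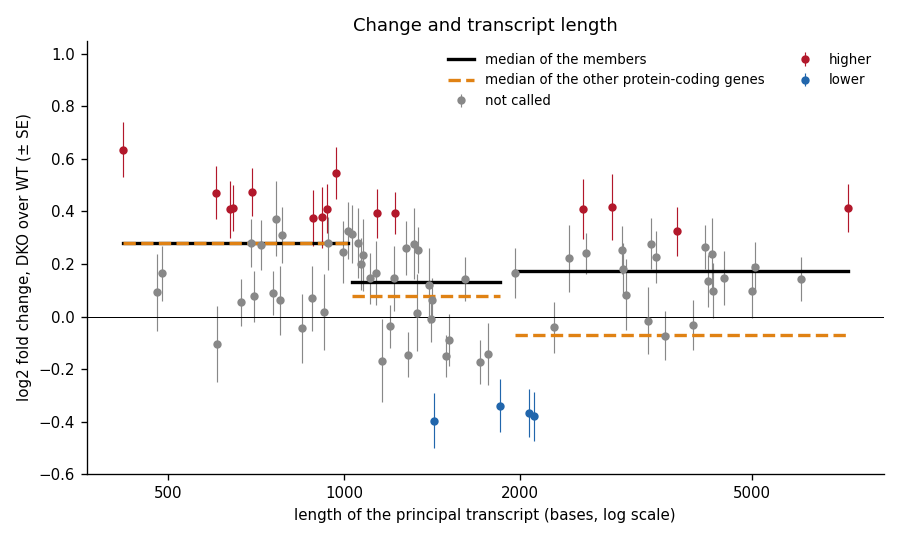
Log2 fold change of DKO over WT (± SE) of each member against the length of its principal transcript on a log scale, with black lines for the median of the members and orange dashed lines for that of the other protein-coding genes in 3 length classes. The lines coincide at 0.28 for the shortest class, and for the longest class the members are at 0.17 and the other genes at -0.072. All lines are drawn over the lengths of the members, while the other genes of the longest class span 1887 to 123179 bases.

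Other parts of mitochondrial translation were examined for context. Of 5 proteins of the mitochondrial ribosome whose symbols follow no Mrp pattern, 3 were higher and 1 lower. Of all genes tested, 10.7% were higher and 10.8% lower. Gadd45gip1 (1.47-fold, edgeR adjusted p = 0.0155), Chchd1 (1.35-fold) and Aurkaip1 (1.35-fold) rose, in each case with DKO replicate 1 the lowest DKO library and overlapping WT. Ptcd3, like Mrps27 a pentatricopeptide repeat protein of the small subunit, had 6550.3, 6037, 5693 and 6744 normalized counts across the WT libraries and 3895, 4712, 4855 and 5162 across the DKO libraries. The groups did not overlap, and it fell to 0.744 of WT (edgeR adjusted p = 0.0182). Dap3, a GTP-binding protein of the small subunit, was not called (1.08-fold).

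Of 27 factors that assemble the mitochondrial ribosome 1 was higher (3.7%) and 4 were lower (14.8%), where 10.7% and 10.8% of all genes were. Their median log2 fold change was -0.14, and -0.030 with upper-quartile scaling. Malsu1, which keeps the large subunit from joining too early and binds the protein of Mrpl14, rose 1.26-fold (edgeR adjusted p = 0.0412). Mettl15, a methyltransferase of the small subunit rRNA, fell to 0.69 of WT, Gtpbp10, a GTPase of large subunit assembly, to 0.71, Fastkd2, which binds the large subunit rRNA, to 0.748 and Noa1, a GTPase of mitochondrial translation, to 0.761 (edgeR adjusted p = 0.0196 to 0.0438). Of 16 translation factors 1 was higher, Slirp (1.36-fold), which stabilizes mitochondrial mRNAs, and 1 was lower, Gfm1 (0.7 of WT), the elongation factor that moves the ribosome along the mRNA. Their median was -0.058, and 0.050 with upper-quartile scaling. Whether these lists differed from the members was not tested.

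The rRNAs themselves were also counted, although the molecule is labelled polyA RNA. The large subunit rRNA mt-Rnr2 had 171186, 173238, 179189 and 229634 normalized counts across the WT libraries and 403939, 371260.1, 300629.9 and 258869 across the DKO libraries. It was higher in all DKO libraries (1.77-fold, edgeR adjusted p = 0.00749), and here DKO replicate 1 was the highest. The small subunit rRNA mt-Rnr1 had 21253 ± 6779.9 in WT and 36928 ± 12643 in DKO (SD, n = 4), with overlap, and was not called (1.74-fold, edgeR adjusted p = 0.0614). Such libraries recover only part of an rRNA, so these values are not the amount of ribosomes.

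Families near the members in function had larger medians in the same fit. Of 88 cytosolic ribosomal protein genes tested 65 were higher and 0 lower in edgeR, with a median log2 fold change of 0.40. Their many processed copies make single counts uncertain. Of 82 nuclear genes of the respiratory chain 37 were higher and 2 lower (median 0.28), and of the 13 mRNAs of the mitochondrial genome 10 were higher and 1 lower (median 0.59). Of all genes tested, 10.7% were higher and 10.8% lower, and the median of all protein-coding genes tested was -0.010. These families were not matched to other genes in transcript length. The other protein-coding genes of the shortest length class had a median of 0.28. The part of length in the medians of the families was not tested. Per library, the cytosolic set had medians of 0.23, 0.48, 0.52 and 0.32 in DKO replicates 1 to 4, so that DKO replicate 1 was the lowest there too, but above every WT library (-0.13 to 0.13). No test of the difference between these families and the members was made.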

How the data were processed

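RNAseq of S0 cells from 4 WT and 4 DKO samples was analysed. The authors trimmed the reads with fastp 0.21.0, mapped them to mm10 with HISAT2 2.2.1, kept alignments with a quality of at least 20 and made gene counts with StringTie 1.3.3b, limited to the GENCODE reference annotation, and prepDE. The counts were deposited as whole numbers per gene and library, neither normalized nor pooled. Groups and replicate numbers came from the sample labels. Symbols, coordinates and lengths came from the GENCODE annotation of GRCm38 (the build of mm10), which matched 52489 of 52636 identifiers.

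Counts were filtered with filterByExpr, scaled by TMM and tested with the robust quasi-likelihood test of edgeR 4.0.16 (R 4.3.3, limma 3.58.1) over 17378 genes. SE is that of the log2 fold change, and per-library medians used a pseudocount of 1 normalized count. The steps were tested on simulated counts. Alternatives were DESeq2 1.42.0, other scalings and filters, protein-coding genes only, a replicate block, a loess correction for GC content and length with a span of 0.5, and libraries left out. The loess correction used the GC content and length of the longest transcript of each gene.

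The members, gene lists and tests were chosen with earlier results of these data known. Named with values were the 8 members with the smallest p in each direction, the 5 with the highest and 3 with the lowest level per length, the Mrps18 paralogs, 9 members with a role of their own, and, of other lists, 2 to 4 genes with the smallest p. Outside this rule, the remaining called members (Mrpl21, Mrpl35, Mrpl57, Mrps16, Mrps34) and Mrpl2, Mrpl3, Mrpl16, Mrpl20, Mrpl23, Mrpl27, Mrpl34, Mrpl38, Mrpl46, Mrpl47, Mrpl48, Mrps6, Mrps10, Mrps11, Dap3 and Mettl15 were named after their values were seen. Motifs and sequences of promoters are from RefSeq. Library pairs of a genotype differed by more than counting error (chi-square per gene 18.5 or more), so none was a copy of another.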

Additional observations from a re-analysis of the deposited data

Results flagged for a closer look

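In 160 groups of 4 libraries examined (each of the 78 members and the Mrpl and Mrps medians, in WT and in DKO), 6 had a library that stood apart from the other 3 beyond Dixon's critical value for 4 values, and chance gives about 1 in 20 groups. Of these 6 only Mrpl13 was called, at 4182 normalized counts in WT replicate 4, above 4056 in the next WT library, with a gap of 0.839 of the range of the group. This range was narrow, and all DKO libraries were above it. Mrpl2 was at 5637 in DKO replicate 1, below 7584 in the next DKO library, with a gap of 0.865 of the range. It was not called over all libraries (1.24-fold, edgeR adjusted p = 0.0718) and was called without DKO replicate 1 (edgeR adjusted p = 0.00429). The remaining 4 were WT libraries. Mrps12 was at 6038 in WT replicate 3, above 5490.5 in the next, and Mrpl34 at 7394 in WT replicate 3, above 6473. Mrpl48 was at 4036 in WT replicate 1, above 3818 in the next, and Mrps6 at 1574 in WT replicate 4, below 1695.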

How the results depend on the processing

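The main result, 15 members higher and 4 lower, moved with the scaling, the filter and the libraries. The count of higher members was 26 with library size alone, 29 with upper-quartile scaling, 9 with no low-count filter, 26 with at least 10 counts in every library, 26 with protein-coding genes only, 31 without DKO replicates 1, 2 and 4 and 0 with a log2 fold change beyond 1. Of all genes tested, 10.9, 14.3, 4.78, 12.6, 12.3 and 6.41% were higher in the first 6 of these settings. Leaving out 1 library gave 7 to 35 higher and 0 to 3 lower. The count of lower members was 1 with upper-quartile scaling, 2 without DKO replicates 1, 2 and 4 and 0 with a log2 fold change beyond 1. Upper-quartile scaling moved the median of all genes from 0.032 to 0.14 and that of the members from 0.17 to 0.27. Over the larger gene sets of DESeq2 and of no low-count filter the median of all genes was 0.14 and 0.13. The medians of Mrpl and Mrps stayed positive in every setting and reached 0.34 and 0.34 without DKO replicates 1, 2 and 4. Their difference of 0.00049 ranged from -0.026 to 0.024 when 1 library was left out. The causes were not tested.

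Same-numbered libraries did not deviate together, with correlations of deviations of -0.089, 0.043, -0.021 and -0.0075. With 4 libraries per genotype, these values cannot decide whether the samples were paired. The shared numbers are those of the sample titles, while the library names number the DKO samples differently. With a replicate block 9 members were higher (11.5%) and 1 lower (1.28%), where 5.9 and 6.23% of all genes were. With the block and the GC and length correction together 2 were higher and 2 lower (2.56% each), where 4.14 and 4.43% of all genes were. No WT library correlated best with the DKO library of its own number, while DKO replicate 2 correlated best with WT replicate 2 (0.043).

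Single members changed sign in these settings. With the GC and length correction and, second, with the block added, the log2 fold changes were -0.077 and -0.078 for Mrpl14, -0.065 and -0.066 for Mrpl54, -0.00037 and -0.010 for Mrpl18, 0.0083 and 0.0021 for Mrpl1, -0.26 and -0.27 for Mrps12, 0.069 and 0.046 for Mrps30, -0.20 and -0.20 for Mrps36, -0.0032 and -0.011 for Mrpl2, 0.070 and 0.060 for Mrpl3, -0.19 and -0.19 for Mrpl27, and -0.027 and -0.036 for Mrpl46. Upper-quartile scaling gave 0.035 for Mrpl1, 0.090 for Mrps30 and 0.075 for Mrpl3, and protein-coding genes only gave 0.019 for Mrps30 and 0.0029 for Mrpl3. Leaving out 1 library gave ranges of -0.032 to 0.21 for Mrpl33, -0.021 to 0.18 for Mrpl11, -0.028 to 0.17 for Mrps12, -0.12 to 0.10 for Mrps30 and -0.13 to 0.018 for Mrpl3, with the changes of sign without DKO replicate 3 or, for Mrps30 and Mrpl3, without DKO replicate 1. Without DKO replicates 1, 2 and 4, Mrpl49 was 0.053, Mrpl1 0.0017, Mrps30 0.011 and Mrpl16 0.18.

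With at least 1205 counts per member and library, the spread between libraries and not the depth limits these comparisons. Most differences are small. Genotype, litter and, for 3 of 4 DKO libraries, sex cannot be told apart. Levels per length rest on 1 principal transcript per gene.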

Other observations

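Processed copies that carry a member's name had few counts, and copies under other symbols were not looked up. Of 5 pseudogenes named after a member, Mrpl23-ps1 had the highest count in a library, 541, and the other 4 reached 35 (Mrps36-ps1), 13 (Mrps36-ps2), 3 (Mrpl48-ps) and 0 (Mrps36-ps3). Mrpl23 itself, a large subunit protein at the tunnel exit, had 5126, 5338, 5940.2 and 5055 normalized counts across the WT libraries and 5663, 6509, 6898 and 6999 across the DKO libraries and was not called (edgeR adjusted p = 0.0556). Mrpl20, a counterpart of bacterial L20, had 6256, 6012, 6441 and 5842 across the WT libraries and 5879.8, 8499, 10006 and 7384 across the DKO libraries. Its DKO replicate 1 lay within the WT values and the other 3 were above them all, and it was not called (1.29-fold, edgeR adjusted p = 0.0931).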
